A study of Mus musculus with 15 samples.

Results

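Livers of adult male mice whose fathers had been underfed before birth (IUGR F2) were set against control livers. The comparison takes in every pool titled as offspring of IUGR mice (pools 10, 11 and 12) and every control pool (pools 1, 2 and 3), which makes 6 of the 15 arrays of the series. The fathers of the IUGR F2 mice had been exposed to caloric restriction of 50% in utero, and the sons themselves carry no exposure in the labels. The titles of the control pools name first and second generation offspring together, while the series' design gives separate controls to both generations. Which generation each control pool holds could not be settled, so in differences from control the fathers' restriction and generation cannot be told apart. IUGR F1 (the underfed males, pools 4, 5 and 6), ON F2 (sons of males overfed during lactation, pools 13, 14 and 15) and ON F1 (those overfed males, pools 7, 8 and 9) are used only to show where the sons of IUGR males differ. Each array holds RNA of pooled whole liver on the Affymetrix GeneChip Mouse Genome 430 2.0 array, with the 3 in the titles taken to mean livers in a pool. No label says whether the pools of a group come from separate litters, and no strain is named, so p-values measure only the spread between these pools.

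The study asked whether expression patterns pass through the paternal line to animals that never met the restriction. Growth restriction before birth is known as a risk for later fatty liver and insulin resistance. The liver turns surplus sugar into fatty acids by a chain of cytosolic enzymes that insulin and sugar switch on through the transcription factors SREBP1c (gene Srebf1) and ChREBP (gene Mlxipl), and fasting switches this chain off. Whole liver also holds macrophages, stellate cells, endothelial cells and lymphocytes beside its hepatocytes, and in a bulk sample fewer cells of a type and less RNA per cell cannot be told apart.

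Levels are log2 RMA (robust multi-array average) values, given per pool or as mean ± SD over 3 pools. Differences are IUGR F2 minus control on the same scale, with the standard error of limma. Hepatocyte markers were bright and had a median at the same level in both groups: albumin, Alb, stood at 14.42 ± 0.02 in IUGR F2 and 14.42 ± 0.02 in control pools, and the median of the 6 measured markers differed by 0.00. Single markers differed by -0.23 to 0.03. Correlations between arrays across genes were 0.9954 to 0.996 within IUGR F2, 0.9942 to 0.9947 within control and 0.9934 to 0.9956 between the groups. There were 0 array pairs with equal values throughout. The 3' to 5' ratio of actin, which falls with intact RNA, was 1.93, 1.84 and 2.28 (log2) in IUGR F2 and 1.94, 1.91 and 1.76 in control pools, so pool 12 stood highest. Dbp, a clock gene with a daily peak in liver, stood at 5.46, 6.18 and 7.97 in IUGR F2 and at 5.88, 10.07 and 6.89 in control pools, which puts control pool 2 apart from the other 5.

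Across 18193 genes, limma called 0 at an adjusted p of 0.05 (0% higher and 0% lower), and the smallest adjusted p was 0.259. At an unadjusted p under 0.05, 456 genes (2.51%) were higher and 827 (4.55%) lower, 1283 (7.05%) in all. The pools of the groups did not overlap for 959 genes (5.27%) on the higher and 1476 (8.11%) on the lower side, and 53.4% of all differences were below 0. That split depends on scaling: with each array centred on the median of its bright genes, 962 genes were higher and 359 lower at an unadjusted p under 0.05. No single gene therefore passed the test against control, and the values below describe which genes and groups lay farthest from the control pools.

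The enzymes that build fatty acids had the lowest median difference of the 52 gene lists read here. Of 26 measured genes of fatty acid synthesis all 26 were below control, 23 after centring on bright genes or without pool 11, and 11 of them reached an unadjusted p under 0.05, where 4.55% of all genes did so on the lower side. The median difference was -0.39, against -0.01 over all genes. In 15 of the 26 genes the 3 IUGR F2 pools all lay below the 3 control pools, beside 8.11% of all genes. By pool, the list median relative to the control mean was -0.22, -0.48 and -0.48 in IUGR F2 and 0.17, 0.03 and -0.16 in control pools, so the groups did not overlap. Without pool 12, which had the highest actin ratio, the median was -0.33 and 5 genes reached an unadjusted p under 0.05. That count was 6 without pool 11, control pool 1 or control pool 2. With the actin ratio as a covariate the median was -0.29 and 4 genes did. The part of RNA length in this difference was not tested beyond these values.

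The chain starts with citrate that leaves mitochondria through the carrier Slc25a1, which stood at 10.14, 10.25 and 10.11 in IUGR F2 and at 10.63, 10.38 and 10.53 in control pools (difference -0.35 ± 0.10). ATP citrate lyase, Acly, which splits this citrate into acetyl-CoA, overlapped between the groups at 11.62, 10.98 and 10.70 in IUGR F2 and 11.72, 11.49 and 11.30 in control pools. Acaca, the acetyl-CoA carboxylase that commits carbon to fat, had 8.73, 8.49 and 8.71 in IUGR F2 against 9.20, 9.17 and 9.01 in control pools. Each IUGR F2 pool lay below each control pool for Acaca, although only 1 of its 2 probe sets was negative. Fatty acid synthase, Fasn, which joins the carbons into palmitate, stood at 11.36, 11.10 and 10.75 in IUGR F2 and 12.25, 11.90 and 11.60 in control pools (difference -0.84 ± 0.31, limma adjusted p = 0.668). Malic enzyme, Me1, which supplies NADPH to the synthase, stood at 9.71, 9.77 and 9.45 in IUGR F2 and at 11.21, 10.70 and 9.92 in control pools. All 3 pools of the sons were lower for both genes, and the control pools spread widely, with pool 1 highest and pool 3 lowest.

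Enzymes that lengthen and desaturate the new fatty acids showed the same order. The elongases Elovl6 and Elovl5 differed by -0.73 ± 0.39 and -0.34 ± 0.16, with no overlap between groups in either. Stearoyl-CoA desaturase 1, Scd1, the main liver form, stood at 13.52, 13.24 and 13.50 in IUGR F2 and 13.94, 13.90 and 13.65 in control pools. Its relative Scd2 had the smallest p of the list, with 5.03, 5.44 and 5.54 in IUGR F2 and 6.51, 5.78 and 6.74 in control pools (difference -1.01 ± 0.23, limma adjusted p = 0.37). Averaging its 3 probe sets brought Scd2 to -0.40, so most of that difference sat in its brightest probe set. The desaturases of polyunsaturated fatty acids, Fads1 and Fads2, differed by -0.26 ± 0.10 and -0.36 ± 0.14. Of the enzymes that build triglyceride, Gpam, which adds the first acyl chain, differed by -0.37 ± 0.22 with overlapping pools. Dgat1 and Dgat2, which add the last, differed by -0.01 ± 0.07 and -0.06 ± 0.09, and a dimmer probe set of Dgat2 by -0.32.

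Thrsp and Pnpla3 had the largest differences of the list. Thrsp (Spot 14), a protein that thyroid hormone and carbohydrate induce along with lipogenesis, stood at 11.49, 11.06 and 10.06 in IUGR F2 and at 11.96, 12.73 and 11.62 in control pools (difference -1.24 ± 0.45). Without pool 12 the difference was -0.83. Pnpla3 (adiponutrin), a lipid droplet protein that SREBP1c drives, stood at 5.48, 5.25 and 4.86 in IUGR F2 and at 7.12, 7.25 and 6.34 in control pools (difference -1.71 ± 0.69, limma adjusted p = 0.689). The difference of Pnpla3 lay between -1.99 and -1.45 in the alternatives tried. Its pools did not overlap. SDs of 1.05 in ON F2 and 1.87 in ON F1, against 0.31 in IUGR F2 and 0.49 in control pools, enter the standard error of Pnpla3.

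**Figure D1:**
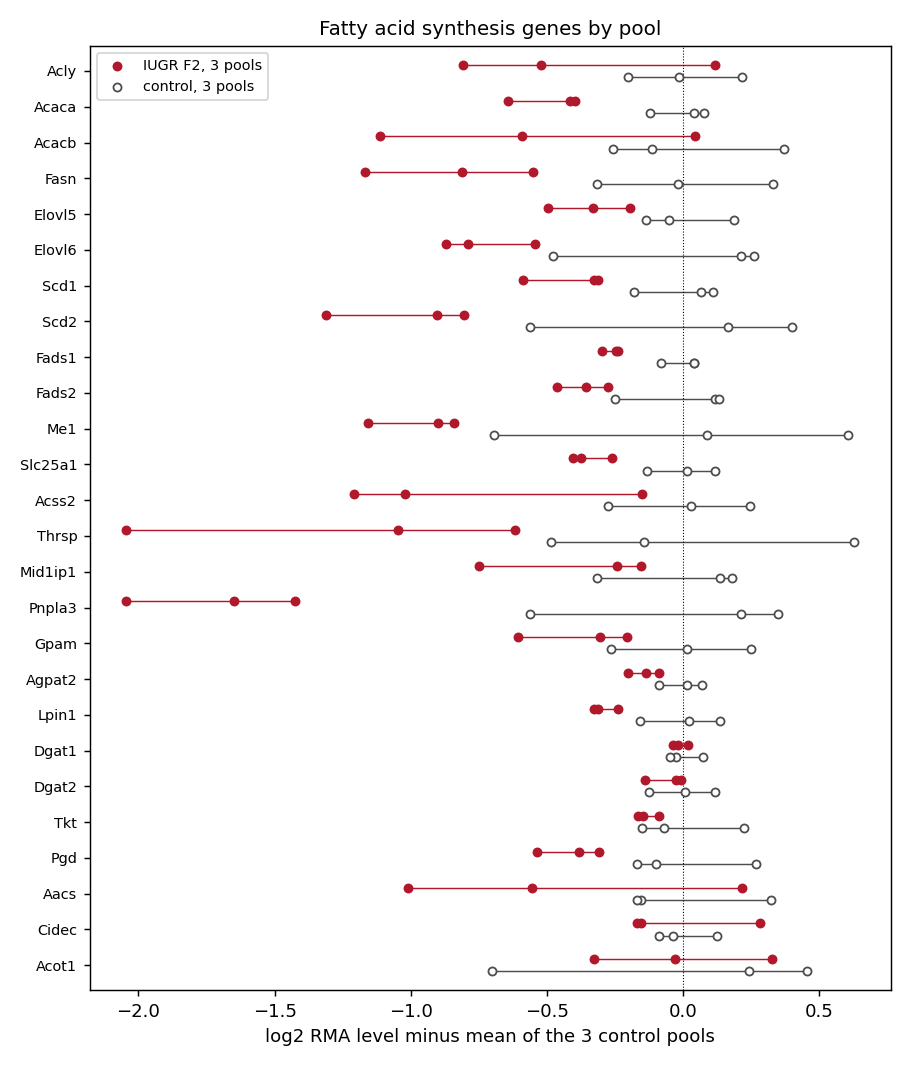
Log2 RMA level of the 26 measured fatty acid synthesis genes relative to the mean of the 3 control pools, 1 point per pool (filled, IUGR F2; open, control), with lines over each group's range. Pnpla3 and Thrsp reach farthest below control, Dgat1 and Dgat2 stay at it, and pools of the groups do not overlap in 15 genes.

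Promoters of 4 genes of this list whose pools did not overlap are shown because the genes lay lower together. Fasn, Thrsp, Pnpla3 and the citrate carrier were chosen after their values were seen, to show different steps. Each is the stretch of 250 bases before the annotated start (RefSeq, GRCm38.p6), 5' to 3' on the gene's strand, with CCAAT, the core of the NF-Y box, in capitals on either strand (CCAAT or ATTGG). Fasn lies at chr11:120824548-120824797 on the minus strand, Thrsp at chr7:97417551-97417800 on the minus strand, Pnpla3 at chr15:84167566-84167815 on the plus strand and Slc25a1 at chr16:17928220-17928469 on the minus strand.
Fasn: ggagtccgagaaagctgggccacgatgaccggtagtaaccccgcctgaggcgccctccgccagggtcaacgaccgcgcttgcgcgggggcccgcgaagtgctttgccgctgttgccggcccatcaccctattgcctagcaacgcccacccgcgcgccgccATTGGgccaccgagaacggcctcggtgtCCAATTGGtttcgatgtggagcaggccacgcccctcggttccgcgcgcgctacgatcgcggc
Thrsp: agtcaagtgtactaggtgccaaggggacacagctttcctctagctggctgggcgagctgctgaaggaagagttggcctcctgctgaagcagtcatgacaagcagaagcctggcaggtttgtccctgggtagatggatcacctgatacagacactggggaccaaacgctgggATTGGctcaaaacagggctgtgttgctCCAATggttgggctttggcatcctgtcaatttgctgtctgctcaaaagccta
Pnpla3: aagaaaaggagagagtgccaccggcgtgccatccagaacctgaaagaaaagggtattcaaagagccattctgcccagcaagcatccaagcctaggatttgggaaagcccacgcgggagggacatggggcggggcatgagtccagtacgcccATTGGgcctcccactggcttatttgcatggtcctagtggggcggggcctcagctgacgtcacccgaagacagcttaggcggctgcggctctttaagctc
Slc25a1: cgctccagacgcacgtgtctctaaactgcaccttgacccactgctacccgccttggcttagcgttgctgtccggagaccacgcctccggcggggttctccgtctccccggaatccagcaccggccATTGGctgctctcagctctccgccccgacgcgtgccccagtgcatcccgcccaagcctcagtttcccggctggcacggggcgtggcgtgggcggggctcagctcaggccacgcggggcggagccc

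The Fasn stretch held 3 matches, whose first bases lie at -90, -62 and -59 from the start, and the last 2 overlap. Thrsp held 2, at -79 and -52, Pnpla3 held 1 at -99 and Slc25a1 held 1 at -125. Of the 21 fatty acid synthesis genes with a promoter in the table, 11 (52.4%) held CCAAT on either strand, against 37.5% of 27025 genes. The GC box GGGCGG, searched on both strands, was in 12 of the 21 (57.1%), against 35.4% of genes, and the E-box CACGTG, which reads the same on both strands, in 2 (9.52%), against 6.86%. These are matches of letters in a window and not binding sites.

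The sugar-handling genes upstream of lipogenesis, and its regulators, were closer to control. Of 20 measured genes 13 were below 0 (12 after centring), and the median was -0.08. At an unadjusted p under 0.05, 2 lay lower and 0 higher, beside 4.55% and 2.51% of all genes. Pfkl, the liver subunit of the glycolytic enzyme phosphofructokinase, stood at 6.97, 6.98 and 6.86 in IUGR F2 and at 7.68, 7.25 and 7.30 in control pools (difference -0.47 ± 0.11, limma adjusted p = 0.37). Pyruvate kinase, Pklr, the classic ChREBP target, differed by -0.68 ± 0.30 with overlapping pools, and by -0.43 without control pool 1. Of the regulators, Srebf1 stood at 11.21, 11.35 and 10.63 in IUGR F2 and 11.46, 11.98 and 11.05 in control pools, which overlap (difference -0.43 ± 0.25). Mlxipl differed by 0.13 ± 0.22. The liver X receptor gene Nr1h3, which feeds into Srebf1, differed by -0.10 ± 0.08.

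Cholesterol synthesis, which shares the SREBP family of regulators, lay lower to a smaller degree. This was not particular to the sons of IUGR males: against the same control pools the list median was -0.21 in IUGR F1 and -0.21 in ON F2. Of 19 measured enzymes 17 were below control (16 after centring), with a median of -0.19 and 5 at an unadjusted p under 0.05, all on the lower side, where 4.55% of all genes were. That count was 2 without control pool 1 or pool 12, 3 without pool 10, 0 without control pool 3 and 0 with the actin ratio as a covariate. The sterol enzymes Nsdhl and Dhcr7 differed by -0.40 ± 0.15 each, and Pmvk, a kinase of the mevalonate steps, by -0.51 ± 0.20, all without overlap. Pool 10 decided much of this list, with a median of -0.45 relative to the control mean, against -0.06 and -0.15 in pools 11 and 12. The control pools stood at -0.02, -0.18 and 0.19, so the list medians overlap, and without pool 10 the median was -0.13.

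Genes that burn fat did not stand opposite to those that make it. Of 22 fatty acid oxidation genes 17 were below control (12 after centring), with a median of -0.07, which was -0.13 without control pool 3. At an unadjusted p under 0.05, 4 of the 22 lay lower, beside 4.55% of all genes. Nudt19, a peroxisomal enzyme that breaks down coenzyme A, was among the 10 lower genes with the smallest p, at 7.99, 7.66 and 7.71 in IUGR F2 and 8.22, 8.50 and 8.50 in control pools (difference -0.62 ± 0.12, limma adjusted p = 0.285). Hadha, the alpha subunit of the mitochondrial trifunctional protein, stood at 9.82, 9.86 and 9.84 in IUGR F2 and 10.29, 10.07 and 10.04 in control pools. Acaa1b, a peroxisomal thiolase, differed by -0.42 ± 0.18 and Hadh by -0.16 ± 0.07. The 18 fasting and PPARA targets had a median of -0.05, 0.00 after centring. Of them 1 reached an unadjusted p under 0.05, a share near the 7.05% of all genes: the hormone Fgf21 (-0.61 ± 0.28, overlapping pools).

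Among genes of lipid droplets and fat uptake 18 of 21 were below control, 14 after centring, with a median of -0.11. Control pool 1 set much of this: without it 13 of 21 were below control and the median was -0.01. Relative to all control pools the list median was -0.01 in IUGR F1 and -0.19 in ON F2. Pparg, the fat cell regulator that liver expresses little unless fatty, stood at 4.80, 4.77 and 5.24 in IUGR F2 and at 6.26, 5.52 and 5.34 in control pools (difference -0.77 ± 0.22). Fitm1, a protein that partitions triglyceride into droplets, stood at 7.75, 7.83 and 7.88 in IUGR F2 and 9.45, 8.73 and 8.22 in control pools (difference -0.98 ± 0.28, limma adjusted p = 0.596). Without control pool 1 the Pparg difference was -0.49. Mfsd2a, a carrier of lysophospholipids that fasting induces in liver, stood at 4.74, 4.82 and 5.92 in IUGR F2 and at 7.29, 6.82 and 6.01 in control pools (difference -1.55 ± 0.37). The highest pool of the sons lay just under the lowest control pool for this gene. The 20 lipoprotein genes had a median of -0.02, with Pltp, the phospholipid transfer protein of plasma, at -1.64 ± 0.55 with overlapping pools. The HDL receptor Scarb1 differed by 0.42 ± 0.18, but another bright probe set of it, with a mean of 9.79, by -0.02. Bile acid genes had a median of -0.01 over 22 members, and Cyp7a1, the rate-limiting enzyme of bile acid synthesis, overlapped between groups (0.34 ± 0.22). Of 23 genes of glucose output and insulin signalling 1 reached an unadjusted p under 0.05, a share below the 7.05% of all genes. It was glucose-6-phosphatase G6pc, which releases free glucose, at 10.69, 10.87 and 10.45 in IUGR F2 and 10.11, 10.03 and 10.43 in control pools (difference 0.48 ± 0.16).

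Across all genes, the 10 per direction with the smallest p were taken from those whose pools did not overlap. Rnf144b, a RING-type ubiquitin ligase, led the higher side at 9.98, 9.96 and 9.95 in IUGR F2 and 9.42, 9.44 and 9.63 in control pools (difference 0.47 ± 0.08, limma adjusted p = 0.259). Its 3 pools of sons were nearly equal, but 1 of its 3 probe sets was negative and their mean differed by only 0.20. Crym, a cytosolic protein that binds thyroid hormone, stood at 5.18, 5.48 and 5.91 in IUGR F2 and at 4.34, 4.36 and 4.60 in control pools (difference 1.09 ± 0.19). It was dim, with a mean of 4.82 over the 15 arrays. Nsd3, a histone H3 lysine methyltransferase, stood at 7.64, 7.76 and 7.68 in IUGR F2 and at 7.31, 7.27 and 7.42 in control pools (difference 0.36 ± 0.08). All 6 probe sets of Nsd3 were positive. The rest of the higher 10 were Adi1, the uncharacterised transcript A530053G22Rik, the phospholipase C gene Plch1, the pseudogene Magea7-ps, the semaphorin Sema7a, Niban3 and the carboxylesterase Ces4a, with differences of 0.30 to 0.69 and limma adjusted p of 0.285 to 0.464.

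On the lower side Hsd3b3, a 3-beta-hydroxysteroid dehydrogenase of liver and kidney, led at 9.44, 9.58 and 9.32 in IUGR F2 and 10.01, 9.81 and 10.02 in control pools (difference -0.50 ± 0.09, limma adjusted p = 0.259). A dimmer probe set of Hsd3b3, with a mean of 8.33, differed by only -0.09. Btrc, the F-box protein that marks beta-catenin for breakdown, differed by -0.51 ± 0.09 at its brightest probe set only: the other 4 of its 5 probe sets were positive, and their mean differed by -0.01. Fkbp8, an immunophilin of the outer mitochondrial membrane, stood at 8.67, 8.25 and 8.38 in IUGR F2 and 9.48, 9.14 and 9.01 in control pools (difference -0.77 ± 0.15). Slc15a2, a peptide transporter, stood at 5.92, 6.16 and 5.42 in IUGR F2 and at 6.62, 6.93 and 6.36 in control pools, and all 3 of its probe sets were negative. Pls1, an actin-bundling plastin, stood at 5.22, 5.04 and 5.25 in IUGR F2 and at 5.96, 5.78 and 6.00 in control pools (difference -0.74 ± 0.15, limma adjusted p = 0.334). Bmyc, a relative of Myc, and Mlf2 differed by -0.84 ± 0.17 and -0.67 ± 0.14. Nudt19 and 2 immunoglobulin-related transcripts complete the lower 10.

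**Figure D2:**
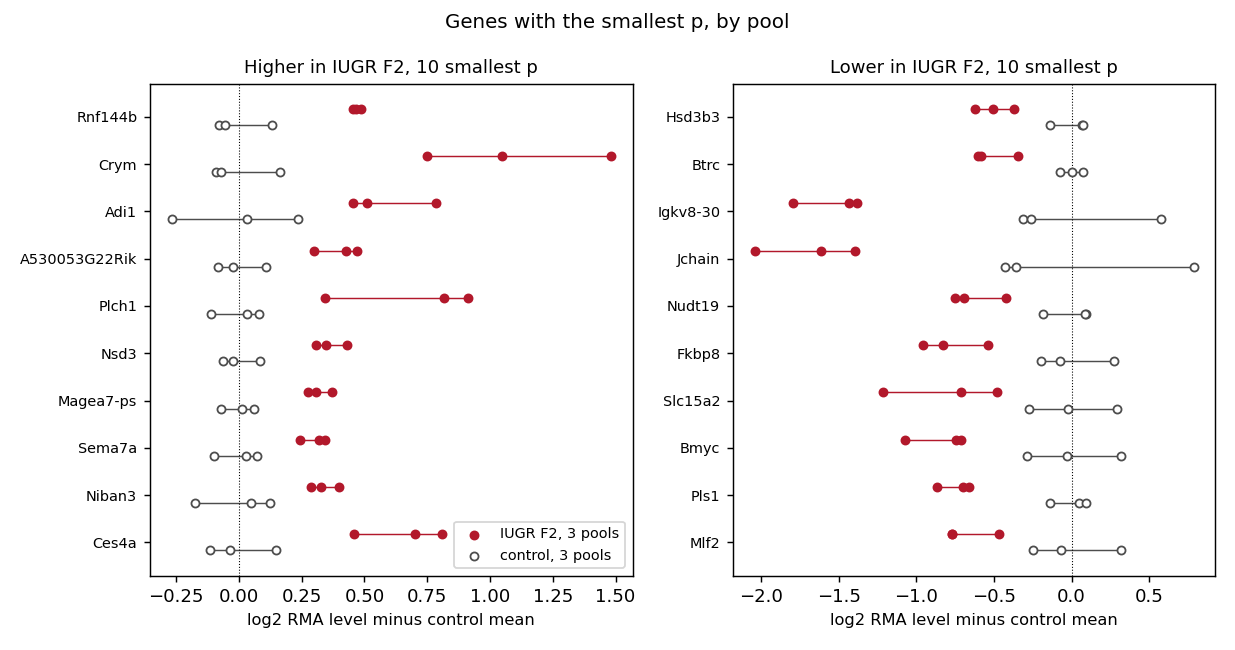
Log2 RMA level relative to the control mean for the 10 genes per direction with the smallest p among those whose pools do not overlap, 1 point per pool (filled, IUGR F2; open, control). Crym, which is dim, has the widest gap on the higher side and Jchain and Igkv8-30 on the lower, while Rnf144b is the tightest among the 3 pools of sons.

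Ranked by size instead, the higher side held Glo1, glyoxalase 1, which detoxifies methylglyoxal, at 12.06, 12.02 and 12.08 in IUGR F2 and 11.48, 11.24 and 11.29 in control pools (difference 0.72 ± 0.28, limma adjusted p = 0.683). All 4 probe sets of Glo1 were positive. Ndrg1, a stress and hypoxia gene, stood at 6.42, 7.15 and 6.80 in IUGR F2 and at 6.02, 5.86 and 6.05 in control pools, with all 5 probe sets positive. Tbx3, a transcription factor of hepatocytes around the central vein, differed by 0.71 ± 0.30, and by 0.36 without control pool 2. The secreted kinase gene Pkdcc (0.68 ± 0.22, and 0.38 without control pool 1), Cibar1 (0.72 ± 0.29), the homeodomain gene Hopx (0.64 ± 0.26) and the innate immune gene Nlrp12 (0.62 ± 0.23) complete that side with Crym, Plch1 and Ces4a. Among genes at an unadjusted p under 0.05 without overlap, the largest lower differences outside lipid and immune genes were those of Cyp2b9 (-1.42 ± 0.49), Cib3, a calcium and integrin binding gene (-1.29 ± 0.39), and Lratd2 (-1.08 ± 0.31).

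Immunoglobulin transcripts, which B cells and plasma cells make, included the gene farthest below control of all those measured. This was Ighm, the heavy chain of IgM, which stood at 8.43, 8.59 and 7.89 in IUGR F2 and 10.58, 10.83 and 9.91 in control pools (difference -2.14 ± 0.50, limma adjusted p = 0.438). Of its 11 probe sets 10 were negative, and their mean differed by -0.57. Jchain, which joins IgM and IgA into polymers, stood at 5.23, 5.01 and 4.58 in IUGR F2 and at 6.26, 7.41 and 6.19 in control pools (difference -1.68 ± 0.32). The kappa segment Igkv8-30 stood at 5.14, 5.19 and 4.78 in IUGR F2 and at 6.26, 7.15 and 6.31 in control pools (difference -1.54 ± 0.28, limma adjusted p = 0.263). None of these pools overlap. Of the list's 20 measured genes 16 were below control (15 after centring), and the median was -0.17. At an unadjusted p under 0.05, 4 lay lower and 1, Xbp1, higher, beside 4.55% and 2.51% of all genes. Without control pool 2, the highest for all 3 genes, the list median was -0.07, and without pool 10 it was -0.09. The B cell surface markers themselves were dim: 5 of the 8 measured B and plasma cell markers had a mean below 5.

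Antigen presentation genes of MHC class II, which macrophages, dendritic cells and B cells carry, also lay lower. The beta chain H2-Eb1 stood at 5.27, 6.29 and 6.12 in IUGR F2 and at 6.53, 7.36 and 7.03 in control pools (difference -1.08 ± 0.27, limma adjusted p = 0.53). H2-Ab1 (-0.51 ± 0.16), the invariant chain Cd74 (-0.47 ± 0.16) and H2-Aa (-0.40 ± 0.17) followed, while H2-Ea differed by 0.18 ± 0.13. Over 17 genes 13 were below control (11 after centring), and the median was -0.12. At an unadjusted p under 0.05, 4 of the 17 lay lower, beside 4.55% of all genes. The median was -0.06 without control pool 1, -0.08 without control pool 2 and -0.40 over the 7 genes with a mean of at least 5. The list medians of -0.19, -0.13 and -0.13 in IUGR F2 and -0.03, 0.11 and -0.02 in control pools did not overlap. Members of these families, like the Hsd3b, Gst and Cyp2 genes, share sequence, so a probe set may read more than 1 of them.

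Other cells of the liver were read through their markers. Of 10 stellate cell markers 9 were below control, with or without centring, with a median of -0.27. At an unadjusted p under 0.05, 4 of the 10 lay lower, beside 4.55% of all genes. Their pool medians were -0.42, -0.12 and -0.43 in IUGR F2 and -0.08, 0.09 and -0.04 in control pools over all 10 markers. The collagens Col3a1 and Col1a2, matrix proteins that these cells secrete, differed by -0.65 ± 0.21 and -0.49 ± 0.23 without overlap. The matrix protein Lum and the stellate cell marker Reln differed by -0.54 ± 0.18 and -0.33 ± 0.13 with overlap. Of 12 Kupffer cell markers, genes of the resident macrophages, 11 were below control with a median of -0.26, but pool 11 stood above the control mean (pool medians -0.55, 0.14 and -0.35 in IUGR F2 and -0.25, -0.08 and 0.33 in control). The Kupffer median was -0.09 without control pool 3, -0.13 without pool 10 and -0.47 without pool 11. Only lysozyme Lyz2 among them reached an unadjusted p under 0.05 (-0.47 ± 0.21). Sinusoidal endothelial markers (9 of 10 below control, median -0.15) had 1 such member, the secreted nuclease Dnase1l3 (-0.35 ± 0.16). Their pool medians of -0.31, 0.01 and -0.26 in IUGR F2 and 0.09, 0.01 and -0.16 in control overlap, and without pool 11 the median was -0.27. T and NK cell markers had a median of 0.00 over 6 genes, 4 of them dim, and bile duct markers 0.03 over 6. Neutrophil markers had a median of -0.22 that depended on control pool 3, and was 0.23 without it. Erythroid, adipocyte, skeletal muscle and exocrine pancreas markers had medians of 0.08, 0.00, 0.04 and 0.10. The part of these cell types in the immunoglobulin, MHC class II and lipid gene differences was not tested.

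**Figure D3:**
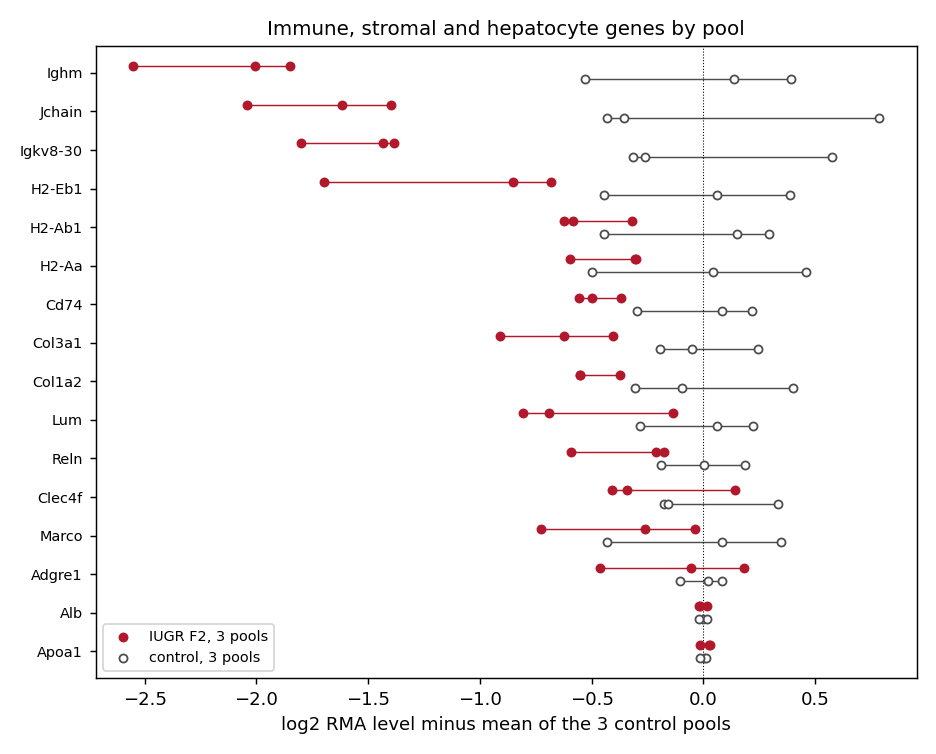
Log2 RMA level relative to the control mean of immunoglobulin, MHC class II, stellate cell, Kupffer cell and hepatocyte genes, 1 point per pool (filled, IUGR F2; open, control). Ighm, Jchain and Igkv8-30 stand more than 1 unit below the control mean in each pool of sons, Kupffer cell genes overlap between groups, and Alb and Apoa1 lie at 0.

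Genes that handle drugs and toxins were read in 4 lists. Of 19 glutathione S-transferases, which couple glutathione to reactive compounds, 17 were below control (15 after centring), with a median of -0.20. Against the same control pools that median was -0.03 in IUGR F1 and -0.23 in ON F2. The list rested in part on control pool 1 and pool 11, without which its median was -0.07 and -0.10. Gstm5 stood at 8.39, 8.41 and 8.38 in IUGR F2 and at 8.73, 8.63 and 8.65 in control pools (difference -0.27 ± 0.11), and mitochondrial Gstk1 differed by -0.41 ± 0.17 with overlap. Of 19 targets of the xenobiotic receptors CAR and PXR 14 were below 0 (11 after centring), with a median of -0.07, which was -0.02 without control pool 2, -0.24 without control pool 3 and -0.18 without pool 10. Relative to all control pools the CAR and PXR median was -0.10 in IUGR F1 and -0.29 in ON F2, so this was not particular to the sons of IUGR males. Nr1i2, the gene of PXR itself, stood at 6.92, 7.00 and 6.71 in IUGR F2 and 7.23, 7.17 and 7.25 in control pools. Cyp2b9, a cytochrome P450 that female mouse liver expresses more, stood at 4.44, 3.89 and 4.14 in IUGR F2 and at 5.16, 6.30 and 5.27 in control pools, while its relative Cyp2b10 overlapped (0.50 ± 0.45). Among other cytochromes P450 the median was 0.00 over 21 genes, with Cyp2c39 at 7.92, 7.95 and 7.85 in IUGR F2 and 8.84, 9.21 and 8.29 in control pools (difference -0.87 ± 0.25) and Cyp2c38 at -0.86 ± 0.29 on the lower side. Cyp4v3 and Cyp4f13, which oxidise fatty acid chains, stood on the higher side at 0.31 ± 0.12 and 0.34 ± 0.12. The NRF2 list of antioxidant genes had a median of -0.07 over 20 genes, beside -0.09 in IUGR F1 and -0.13 in ON F2. Nfe2l2, which encodes NRF2, and its target Nqo1, which was dim, differed by -0.41 ± 0.15 and -0.34 ± 0.12 without overlap. At an unadjusted p under 0.05, 2 of the 20 lay lower, beside 4.55% of all genes, and 0 did without control pool 1 or without pool 12.

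Growth hormone sets the male pattern of liver genes through its pulses, and male-biased genes leaned upward. Of 15 measured male-biased genes 11 were above control (13 after centring), with a median of 0.08, and the pool medians of 0.12, 0.14 and 0.10 in IUGR F2 and 0.03, -0.02 and -0.01 in control pools did not overlap. The median was 0.05 without pool 11 and 0.15 without control pool 3. The lean was not particular to the sons of IUGR males: against the same control pools the list median was 0.10 in ON F2, and -0.005 in IUGR F1. Cyp2u1 (0.32 ± 0.14) was the 1 member of 15 at an unadjusted p under 0.05, a share near the 7.05% of all genes. Hsd3b5, a steroid enzyme of male liver, stood at 12.25, 12.46 and 12.35 in IUGR F2 and 12.18, 12.13 and 11.98 in control pools. Moxd1 differed by 1.15 ± 0.75 without overlap. Socs2, which growth hormone induces and which dampens its receptor, differed by 0.79 ± 0.33 with overlapping pools. It was the 1 member of 16 in the growth hormone list at an unadjusted p under 0.05, again near the 7.05% of all genes. Female-biased genes had a median of -0.03 over 14 genes, 9 of them dim. Among 19 genes of steroid and thyroid hormone handling, beside Hsd3b3, Crym and Thrsp, the thyroxine carrier Serpina7 stood at 6.76, 7.07 and 7.01 in IUGR F2 and at 7.46, 7.34 and 7.83 in control pools (difference -0.59 ± 0.15, limma adjusted p = 0.53). The sulfotransferase Sult1a1 differed by -0.41 ± 0.14, and Hsd3b2 by 0.47 ± 0.17, opposite to its neighbour in sequence Hsd3b3.

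Stress and housekeeping lists lay near control. Median differences were -0.08 for endoplasmic reticulum stress, -0.09 for ATF4 targets, -0.08 for heat shock proteins, -0.04 for acute phase proteins, 0.05 for complement and coagulation, -0.09 for metallothioneins and glucocorticoid targets and 0.02 for the interferon response. The sensor Ern1 and its product's target Xbp1, both of the unfolded protein response, differed by 0.29 ± 0.12 and 0.28 ± 0.13. Without control pool 1 the metallothionein and glucocorticoid median was 0.03, and without pool 10 the endoplasmic reticulum stress median was -0.01. Medians of the respiratory chain, cytosolic ribosomal proteins, proteasome, urea cycle, ubiquitin ligase, hepatocyte transcription factor and immediate early gene lists lay between -0.06 and 0.03. The cell cycle list had a median of -0.10, with the replication helicase subunit Mcm6 at 5.00, 5.67 and 5.38 in IUGR F2 and 5.99, 6.16 and 6.10 in control pools (difference -0.73 ± 0.20). The clock outputs had a median of -0.26 and the core clock of -0.16, but control pool 2, the pool with high Dbp, set both. Without that pool the medians were 0.01 and -0.03. Cry2, a repressor of the clock, stood at 6.39, 6.58 and 6.39 in IUGR F2 and 6.91, 7.16 and 6.66 in control pools (difference -0.46 ± 0.15), below each of them. At an unadjusted p under 0.05, 1 of the 16 core clock genes lay lower, beside 4.55% of all genes, and 0 did without control pool 2.

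**Figure D4:**
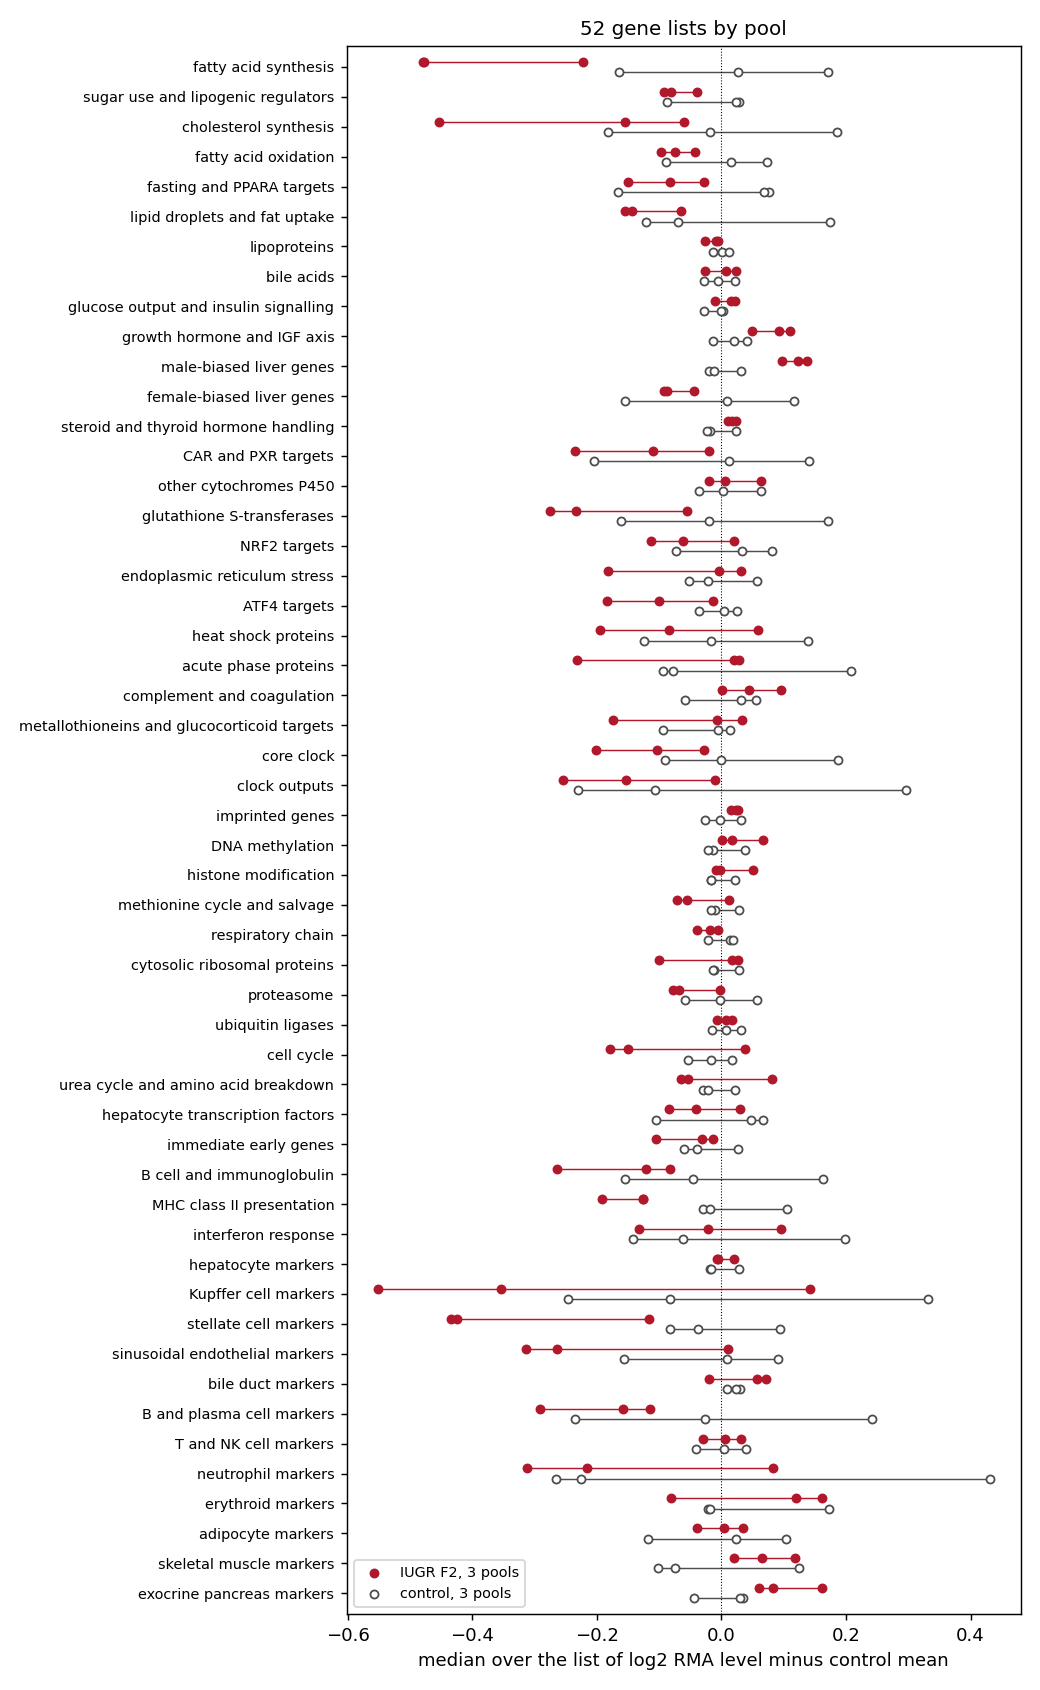
Median over each of the 52 gene lists of the log2 RMA level relative to the control mean, 1 point per pool (filled, IUGR F2; open, control). Fatty acid synthesis, stellate cell and MHC class II lists lie below all control pools. Male-biased, growth hormone and exocrine pancreas lists lie above them, while Kupffer cell markers and the clock lists overlap.

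Because the study's question is inheritance through the father, genes that write or carry epigenetic marks were read as well. Of 17 DNA methylation genes 1 reached an unadjusted p under 0.05, a share near the 7.05% of all genes. The de novo methyltransferase Dnmt3b stood at 7.13, 6.79 and 6.89 in IUGR F2 and at 6.52, 6.08 and 6.43 in control pools (difference 0.59 ± 0.21, limma adjusted p = 0.656). Another probe set of Dnmt3b, with a mean of 6.02, differed by 0.21. The maintenance relative Dnmt1 differed by -0.09 ± 0.10, but another probe set of Dnmt1, with a mean of 5.86, by 0.27. Among 31 histone-modifying genes of a separate list the median was 0.01, and the H3K9 methyltransferase Ehmt2 stood at 8.32, 8.15 and 8.27 in IUGR F2 and 8.51, 8.44 and 8.51 in control pools (difference -0.24 ± 0.07). Averaging its 2 probe sets left -0.10. Of 35 imprinted genes, which are expressed from 1 parental copy, 19 were above and 16 below control with a median of 0.02. Of these, 3 reached an unadjusted p under 0.05, a share near the 7.05% of all genes, and 0 did without control pool 1. Copg2 (0.33 ± 0.11) and Asb4 (0.22 ± 0.09) stood higher and Peg3 (-0.72 ± 0.28) lower. Asb4 was dim, and its other probe set differed by -0.15. The methionine cycle, which supplies methyl groups, had a median of -0.03 over 23 genes, with Cbs, which draws homocysteine off to cysteine, at -0.24 ± 0.08.

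Adi1, acireductone dioxygenase of the methionine salvage pathway, was the gene of this list farthest above control. It stood at 9.02, 8.97 and 9.30 in IUGR F2 and at 8.25, 8.75 and 8.55 in control pools (difference 0.58 ± 0.11, limma adjusted p = 0.285). In a direct comparison of the sons with the underfed males themselves, limma called 2 of 18193 genes as higher (0.011%) and 0 as lower (0%), and Adi1 was one of them. Against 9.02, 8.97 and 9.30 in IUGR F2 it stood at 8.18, 8.32 and 8.36 in IUGR F1 (difference 0.81 ± 0.11, limma adjusted p = 0.037). The other was Mtif2, the mitochondrial translation initiation factor, at 7.96, 8.03 and 8.14 in IUGR F2 and 7.40, 7.43 and 7.38 in IUGR F1 (difference 0.64 ± 0.09, limma adjusted p = 0.037). The 3 pools of sons lay above all 3 IUGR F1 pools in both genes. Adi1 stood at 9.17, 9.10 and 9.16 in ON F1 pools, as high as in IUGR F2, and of its 3 probe sets 1 was negative against control. Every comparison that left out 1 of these 6 pools lost both calls, with limma adjusted p of 0.0775 to 0.200.

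Next to the threshold in the same comparison were the protease gene Sppl2a on the higher side (0.53 ± 0.08, limma adjusted p = 0.0524) and, on the lower side, the transporter Slc7a4 (-0.51 ± 0.08, 0.0524), Pls1 (-0.93 ± 0.15, 0.0822) and Slc15a2 (-0.96 ± 0.16, 0.0892). Slc7a4 differed little between IUGR F2 and control, at 6.28, 6.30 and 6.31 in IUGR F2 and 6.33, 6.29 and 6.28 in control pools, and stood at 6.78, 6.86 and 6.77 in IUGR F1. Pls1 and Slc15a2, both among the lower genes against control, stood at 5.04 to 6.16 in IUGR F2 and 6.04 to 6.96 in IUGR F1 pools.

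Against sons of overfed males, limma called 0 genes as higher (0%) and 1 as lower (0.0055%). Mmd2, a membrane receptor gene of the progestin and adipoQ receptor family, stood at 5.29, 5.38 and 5.62 in IUGR F2 and at 6.79, 6.35 and 6.71 in ON F2 (difference -1.19 ± 0.14, limma adjusted p = 0.00788). The control pools lay between them at 5.73, 5.98 and 5.66. Without pool 11 or pool 15 the call was lost, with limma adjusted p of 0.089 and 0.0892, and averaging the 3 probe sets of Mmd2 gave -0.86 and 0.0682. Adi1 and Mtif2 differed from ON F2 by 0.75 ± 0.11 and 0.56 ± 0.09 (limma adjusted p = 0.053 each). The complement protease C1s1 stood at 10.85, 10.39 and 10.17 in IUGR F2 and at 11.50, 11.53 and 11.40 in ON F2 (difference -1.01 ± 0.16, limma adjusted p = 0.053). At an unadjusted p under 0.05, 977 genes (5.37%) were higher and 867 (4.77%) lower in IUGR F2 than in ON F2, and 778 (4.28%) higher and 1302 (7.16%) lower in IUGR F2 than in IUGR F1. ON F2 pool 13 had an exocrine pancreas marker median of 4.29 relative to the control mean, against 0.18 and 0.20 in pools 14 and 15. Without pool 13, limma called 0 genes as higher and 2 as lower against ON F2, with a smallest adjusted p of 0.0363.

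**Figure D5:**
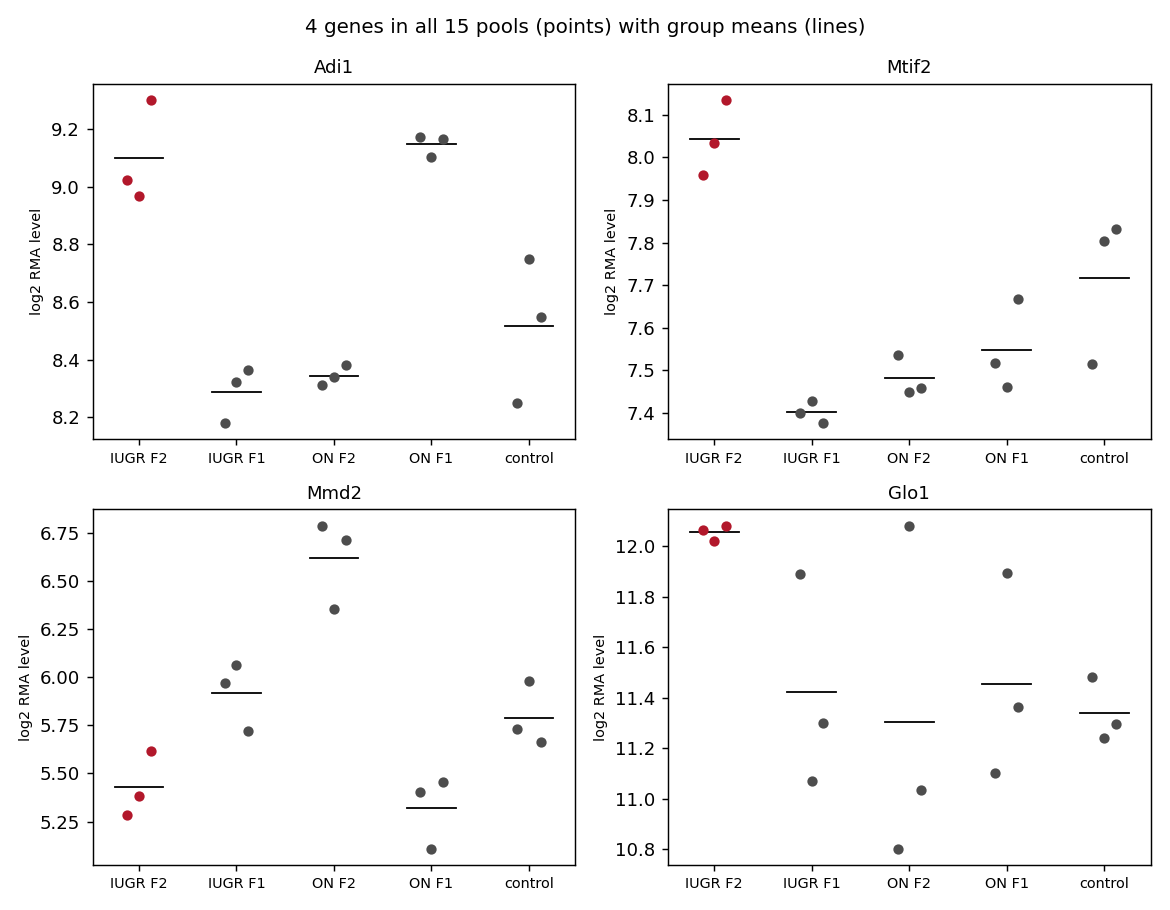
Log2 RMA level of Adi1, Mtif2, Mmd2 and Glo1 in all 15 pools (points) with group means (lines), sons of IUGR males in red. Adi1 is as high in ON F1 as in IUGR F2, Mtif2 is highest in IUGR F2, Mmd2 is highest in ON F2, and 1 pool of ON F2 reaches the Glo1 level of the sons.

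The lipid genes were set beside the same genes in the other groups, which share the control pools. The median of the fatty acid synthesis list relative to control was -0.39 in IUGR F2, -0.01 in IUGR F1 and -0.25 in ON F2. Fasn differed from control by -0.84 in IUGR F2, -0.10 in IUGR F1 and -0.44 in ON F2, and Me1 by -0.97, 0.02 and -0.70 in the same order. Thrsp differed by -1.24, 0.17 and 0.30, and Scd2 by -1.01, -0.84 and -0.58. Directly compared, the list median of IUGR F2 minus IUGR F1 was -0.32 and that of IUGR F2 minus ON F2 was -0.13, with 0 of the 26 genes called by limma in either comparison. Ighm differed from control by -2.14 in IUGR F2, -0.61 in IUGR F1 and -0.84 in ON F2, and Jchain by -1.68, -1.09 and -1.22. Kupffer cell markers had a median of -0.26 in IUGR F2, -0.50 in IUGR F1 and 0.21 in ON F2. Glo1 stood near 12 in each IUGR F2 pool and differed from control by 0.08 in IUGR F1 and -0.03 in ON F2, where pool 14 alone reached this level at 12.08.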

How the data were processed

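The authors measured pooled liver RNA on Affymetrix Mouse 430 2.0 arrays and deposited log2 values made by RMA, per the submitters' processing notes, with the RMA version not given in the sources used here. RMA corrects background, normalises between arrays and summarises each probe set. Of 45101 probe sets 64 control sets were left out, 34945 of the rest had 1 gene symbol, 932 several and 9160 none, and 34741 matched RefSeq. Where a gene had several probe sets, the one brightest on average across the 15 arrays stood for it, which left 18193 genes. Genes are called dim at a mean below 5 and bright at a mean of at least 7. Group means of all 5 groups were fitted with limma 3.58.1 in R 4.3.3 (empirical Bayes, two-sided, Benjamini-Hochberg over all genes, threshold 0.05). The code was tested on simulated data. Precision is limited by 3 pools per group.

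Genes named are the 10 per direction with the smallest p among those without overlap, the 10 per direction with the largest difference among those without overlap at an unadjusted p under 0.05, up to 4 members of each list by p with further members at an unadjusted p under 0.05 in lists of lipid, sugar, xenobiotic and immune genes, genes that give a list its name, and the 5 per direction with the smallest p against IUGR F1 and ON F2. Other list members given with values were chosen after those were seen. The 52 lists hold 1040 entries, 936 of them measured. The comparison and lists were chosen with earlier results of these data known, and lists were described with no test. Alternatives were the 2 compared groups alone, leaving out each pool, averaged probe sets, a mean of at least 5, centring on bright genes, a variance trend with robust fit, array weights, and Dbp or the actin ratio as covariates.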

Additional observations from a re-analysis of the deposited data

Results flagged for a closer look

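The direct comparisons of sons of IUGR males with another group gave 3 differences past the threshold. Adi1 stood 0.81 higher on the log2 scale in IUGR F2 than in IUGR F1, and Mtif2 0.64 higher (limma adjusted p = 0.037 each). Both are tested differences between the generations of the IUGR line. Neither call held when a pool of either group was left out, or with the actin ratio as a covariate. Adi1 was also as high in ON F1 as in IUGR F2. Mmd2 differed by -1.19 between IUGR F2 and ON F2 (limma adjusted p = 0.00788), a tested difference between sons of underfed and of overfed males. This call was lost without pool 11 or pool 15, with the 2 groups alone and with averaged probe sets.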

How the results depend on the processing

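Against control, 0 genes were called by limma under all 14 alternatives, with a smallest adjusted p of 0.0534 (Dbp as covariate) to 0.4885 (without control pool 1). At an unadjusted p under 0.05, 237 genes were higher and 625 lower when only genes with a mean of at least 5 were tested, and centring on bright genes gave 962 higher and 359 lower. The fatty acid synthesis median stayed negative in 14 of 14 alternatives, between -0.50 and -0.29. Against IUGR F1 the count was 1 with the 2 groups alone, 0 to 0 when a pool was left out, 5 with a mean of at least 5, 15 with array weights and 0 with the actin ratio. Against ON F2 it was 0 with the 2 groups alone, 0 to 7 when a pool was left out, 0 with the mean of probe sets, 6 with a mean of at least 5, 3 after centring, 2 with the variance trend, 11 with array weights and 4 with Dbp. Adi1 and Mtif2 also lost their calls with the 2 groups alone (limma adjusted p = 0.0506 each) and with the actin ratio (0.08 and 0.0762), and Mmd2 with the 2 groups alone (0.11). The cause was not tested. For 35 genes named by p or size, 485 values under alternatives kept their direction, and 0 of 1068 values of 77 further list members at an unadjusted p under 0.05 reversed. Selection largely set this outcome. The 35 were chosen for pools that do not overlap, so leaving out a pool cannot reverse them, and the 77 were chosen by p in the same data. No paired analysis was possible because the pool numbers run from 1 to 15 and no number is shared between groups. The table gives no signal over background, so the 7830 genes with a mean below 5 were tested with the rest.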

Other observations

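Acute phase genes spread widely within the groups. Saa3, serum amyloid A3, stood at 8.17, 10.36 and 8.75 in IUGR F2 and at 12.22, 8.68 and 11.65 in control pools, with an SE of 1.31 on a difference of -1.76. Lcn2, lipocalin 2, stood at 9.43, 11.13 and 10.16 in IUGR F2 and at 11.80, 11.15 and 12.39 in control pools, with an SE of 1.56 on a difference of -1.54. Per3, a clock gene, stood at 4.77, 4.52 and 4.57 in IUGR F2 and at 4.54, 7.12 and 4.79 in control pools, so control pool 2 stood apart there as it did for Dbp.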
